A study of Mus musculus with 20 samples.

Results

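In tissue described as the mouse RPE–choroid eyecup, the collagen genes were followed across 4 groups of mice. They were taken as every gene of the deposited table whose symbol is made of Col, a type number, the letter a and a chain number, except *Col17a1*, with values that summed to at least 5 over the 20 libraries. Of 44 genes with such a symbol 43 were members, out of 18745 genes that reached the same minimum and 24411 genes in the whole table. All 43 therefore passed the filter on low values. The lowest sums among them were 225.9 for *Col6a6* and 499.5 for *Col28a1*, and no gene with a collagen symbol lay below the minimum.

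Collagens are secreted proteins made of α chains that wind around each other into a rope-like helix. Each chain has its own gene, and the chains of a type have to meet in the endoplasmic reticulum to form a molecule. The fibrillar collagens (types I, II, III, V, XI, XXIV and XXVII) build the load-bearing fibrils of sclera, cornea and choroidal stroma, and the FACIT group (types IX, XII, XIV, XVI, XIX, XX and XXII) sits on the surface of such fibrils. Type IV forms the sheet of every basement membrane, including the one under the RPE. Types VIII and X form short-chain networks, and type VIII is a main component of Descemet's membrane under the cornea. Type VI makes beaded filaments around cells, and type VII makes the anchoring fibrils that fasten an epithelium to its stroma. The multiplexins XV and XVIII belong to basement membranes, and types XIII, XXIII and XXV span the cell membrane.

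Wild-type (WT) C57BL/6 mice and mice with a germline loss of *Stra6* (*Stra6*-/-), the retinol transporter of the RPE, were raised on standard chow and moved at weaning to a vitamin A sufficient diet (VAS, 4 IU/g) or a vitamin A deficient one (VAD, 0 IU/g) for 12 weeks. Each of the 4 groups has 5 libraries, and each library is described as polyadenylated RNA of both eyecups of 1 mouse after the retina had been peeled off. WT mice were purchased and *Stra6*-/- mice were bred by the authors, so that supplier and genotype cannot be told apart. All values below are normalized values, meaning a gene's read count divided by 1 size factor per library, over 13331903 to 21878614 reads per library. Fold changes are on the log2(value + 1) scale, which understates the change of genes with low values.

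*Stra6* was read first as a check of the labels. It was 2414 to 2742 in VAS WT and 564 to 694 in VAS *Stra6*-/-. It was 669 to 1529 in the libraries labelled VAD WT and 1973 to 2393 in those labelled VAD *Stra6*-/-. Taken without regard to RPE content, the level on the VAD diet was the reverse of these labels. The sources used here do not say which part of the gene is deleted, so that a count over the whole gene need not fall to 0. The summed value of 8 RPE markers was 101396 to 117405 in VAS WT and 107333 to 112836 in VAS *Stra6*-/-. It was 27572 to 52015 in VAD WT and 464344 to 505088 in the libraries labelled VAD *Stra6*-/-. The libraries labelled VAD *Stra6*-/- thus had more RPE marker signal than VAS WT but less *Stra6*, and those labelled VAD WT had less of both. Set against the RPE marker sum of the same library, *Stra6* was lower in every library with a *Stra6*-/- label than in any WT one. The share of RPE cells in a library and the *Stra6* RNA of each cell cannot be told apart here. Both VAD groups are named by their labels here. The 8 ocular surface epithelium markers summed to 620222 to 752863 in VAS WT, 399787 to 1166978 in VAD WT and 873588 to 908114 in VAS *Stra6*-/-. In every library of these groups this was more than the RPE sum. In the libraries labelled VAD *Stra6*-/- it was less, at 23814 to 31369. Replicates 2 and 4 of VAD WT stood apart from the other 3, with *Xist* at 10912 and 11767 against 174 to 234 and *Ddx3y* at 75.2 and 80.5 against 1041 to 1133. *Xist* was 7.69 to 38.4 in VAS WT, 15320.2 to 18052 in VAS *Stra6*-/- and 3569.8 to 4279.6 in the libraries with the VAD *Stra6*-/- label, and *Ddx3y* was 981 to 1193, 0 to 1.02 and 741 to 969.7 in the same groups. Genotype and these sex-linked transcripts therefore cannot be told apart on the VAS diet, nor can they and the label between VAS *Stra6*-/- and VAD *Stra6*-/-. *Xist* was also higher in every VAD WT library than in any VAS WT library, so that it and the diet cannot be told apart in WT. Without VAD WT replicates 2 and 4, *Xist* likewise cannot be told apart from the label between VAD WT and VAD *Stra6*-/-. The interaction draws on all 4 groups and carries these limits. All 5 libraries labelled VAD *Stra6*-/- held both transcripts, although each library is described as 1 mouse. So did VAD WT replicates 2 and 4, whose *Ddx3y* of 75.2 and 80.5 lay above the highest VAS *Stra6*-/- value of 1.02. Whether the spread within a group is the spread between single mice was therefore left unsettled, and the p-values below assume that it is. For 21 collagen genes both replicates lay above the other 3 VAD WT libraries and for 12 both lay below them, together 76.7% of the collagen genes beside 61.4% of all genes tested. The main results that rest on VAD WT are therefore given with and without replicates 2 and 4.

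The promoters of 4 members are shown because the results below turn on them: *Col8a1* and *Col7a1*, with the largest rise and the largest fall between the libraries with the VAD *Stra6*-/- label and VAS *Stra6*-/-, and *Col11a1* and *Col11a2*, partner chains that moved apart there. RefSeq promoter sequences (GRCm38.p6) were matched by symbol for 34 of the 43 members. Each line gives the 250 bases before the annotated start, 5′ to 3′ on the gene's own strand, and the windows are chr16:57754738-57754987 on the minus strand for *Col8a1*, chr9:108953336-108953585 on the plus strand for *Col7a1*, chr3:114030290-114030539 on the plus strand for *Col11a1* and chr17:34038888-34039137 on the plus strand for *Col11a2*. No annotated exon lies in any of the 4 windows. Capitals mark matches, on either strand, to the TATA box TATAAA, the CCAAT box CCAAT, the GC box GGGCGG and the nuclear receptor half-site AGGTCA, or to their reverse complements.
Col8a1: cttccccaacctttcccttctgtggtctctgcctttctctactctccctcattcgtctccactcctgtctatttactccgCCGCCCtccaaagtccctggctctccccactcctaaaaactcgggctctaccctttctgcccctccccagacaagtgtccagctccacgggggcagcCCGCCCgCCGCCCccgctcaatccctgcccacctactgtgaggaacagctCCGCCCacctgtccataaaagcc
Col7a1: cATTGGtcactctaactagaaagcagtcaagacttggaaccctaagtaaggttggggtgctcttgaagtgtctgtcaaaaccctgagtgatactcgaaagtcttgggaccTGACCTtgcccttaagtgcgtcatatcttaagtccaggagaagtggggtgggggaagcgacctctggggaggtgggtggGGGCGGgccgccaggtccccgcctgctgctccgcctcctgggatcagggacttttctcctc
Col11a1: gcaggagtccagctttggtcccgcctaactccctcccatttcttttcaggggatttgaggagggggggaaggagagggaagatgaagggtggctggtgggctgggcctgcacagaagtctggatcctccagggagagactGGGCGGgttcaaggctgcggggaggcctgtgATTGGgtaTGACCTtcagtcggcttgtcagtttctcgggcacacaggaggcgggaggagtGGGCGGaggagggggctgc
Col11a2: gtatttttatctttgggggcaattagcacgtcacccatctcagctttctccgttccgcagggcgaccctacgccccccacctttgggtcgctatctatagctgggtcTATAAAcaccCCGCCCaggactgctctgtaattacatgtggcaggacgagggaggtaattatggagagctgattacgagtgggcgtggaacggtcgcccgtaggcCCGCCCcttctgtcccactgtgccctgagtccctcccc
*Col8a1* holds 4 GC boxes and none of the other 3 motifs. *Col7a1* and *Col11a1* each hold a CCAAT box, at least 1 GC box and 1 half-site, and *Col11a2* holds a TATA box and 2 GC boxes. Over the 34 collagen windows the GC box was found in 21 (61.8%), beside 32.7% of the 32851 start-site windows of all genes in the table. Of several starts of a collagen gene only that nearest to its annotated 5′ end was used, whereas the other set holds every start of each gene. The half-site was in 8 of 34 (23.5%, all windows 14.0%), the CCAAT box in 11 (32.4%, all windows 33.8%) and the TATA box in 4 (11.8%, all windows 12.4%). The GC box was thus the only one of the 4 motifs found in most collagen windows, and the matches are letters in a window, not measured sites.

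Both type I chains were among the 3 genes with the highest level per kilobase in every group. Per kilobase of transcript, the mean normalized value was highest for *Col9a3* in VAS WT (1700.5 ± 130.0 per kb, SD, n = 5), followed by *Col1a2* (1332 ± 28.7 per kb), *Col1a1* (1183 ± 66.3 per kb) and *Col18a1* (1004 ± 42.6 per kb). In VAS *Stra6*-/- the order began with *Col1a2* (1322 ± 20.6 per kb), *Col1a1* and *Col9a3*. In the libraries with the VAD *Stra6*-/- label it began with *Col1a2* (6016 ± 109.7 per kb) and *Col8a2* (4293 ± 179 per kb), ahead of *Col1a1* and *Col9a3*. VAD WT began with *Col1a1*, *Col1a2* and *Col6a1*, whose libraries spread widely (3712 ± 2268, 3596 ± 2638 and 1148 ± 194 per kb). Outside VAD WT, each gene of these orders lay above the next in all 5 libraries of its group, whereas in VAD WT the ranges of *Col1a1* and *Col1a2* overlapped.

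The make-up of the family differed by group. The short-chain network genes held 8.58 to 9.52% of the summed level per kilobase in VAS WT, 11.9 to 12.4% in VAS *Stra6*-/-, 3.38 to 6.96% in VAD WT and 23.6 to 24.6% in the libraries with the VAD *Stra6*-/- label. The share of type IV was 9.69 to 10.2% in VAS WT and 11.4 to 12.8% in VAS *Stra6*-/-, and 4.92 to 6.37% and 4.26 to 4.92% in VAD WT and the VAD *Stra6*-/- label. *Col1a1* and *Col1a2* together held 21.2 to 22.9% in VAS WT, 25.0 to 26.0% in VAS *Stra6*-/-, 29.9 to 54.5% in VAD WT and 34.5 to 35.8% in the libraries with the VAD *Stra6*-/- label. The summed normalized value of all 43 genes was 56769 to 60033 in VAS WT and 49451 to 51944 in VAS *Stra6*-/-. It was 135866 to 139837 in the libraries with the VAD *Stra6*-/- label, and in VAD WT 63008, 129373, 67727, 134555 and 64823 in replicates 1 to 5. In bulk tissue, a change in the share of the cells that make a collagen and a change in its RNA per cell cannot be told apart.

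**Figure D1:**
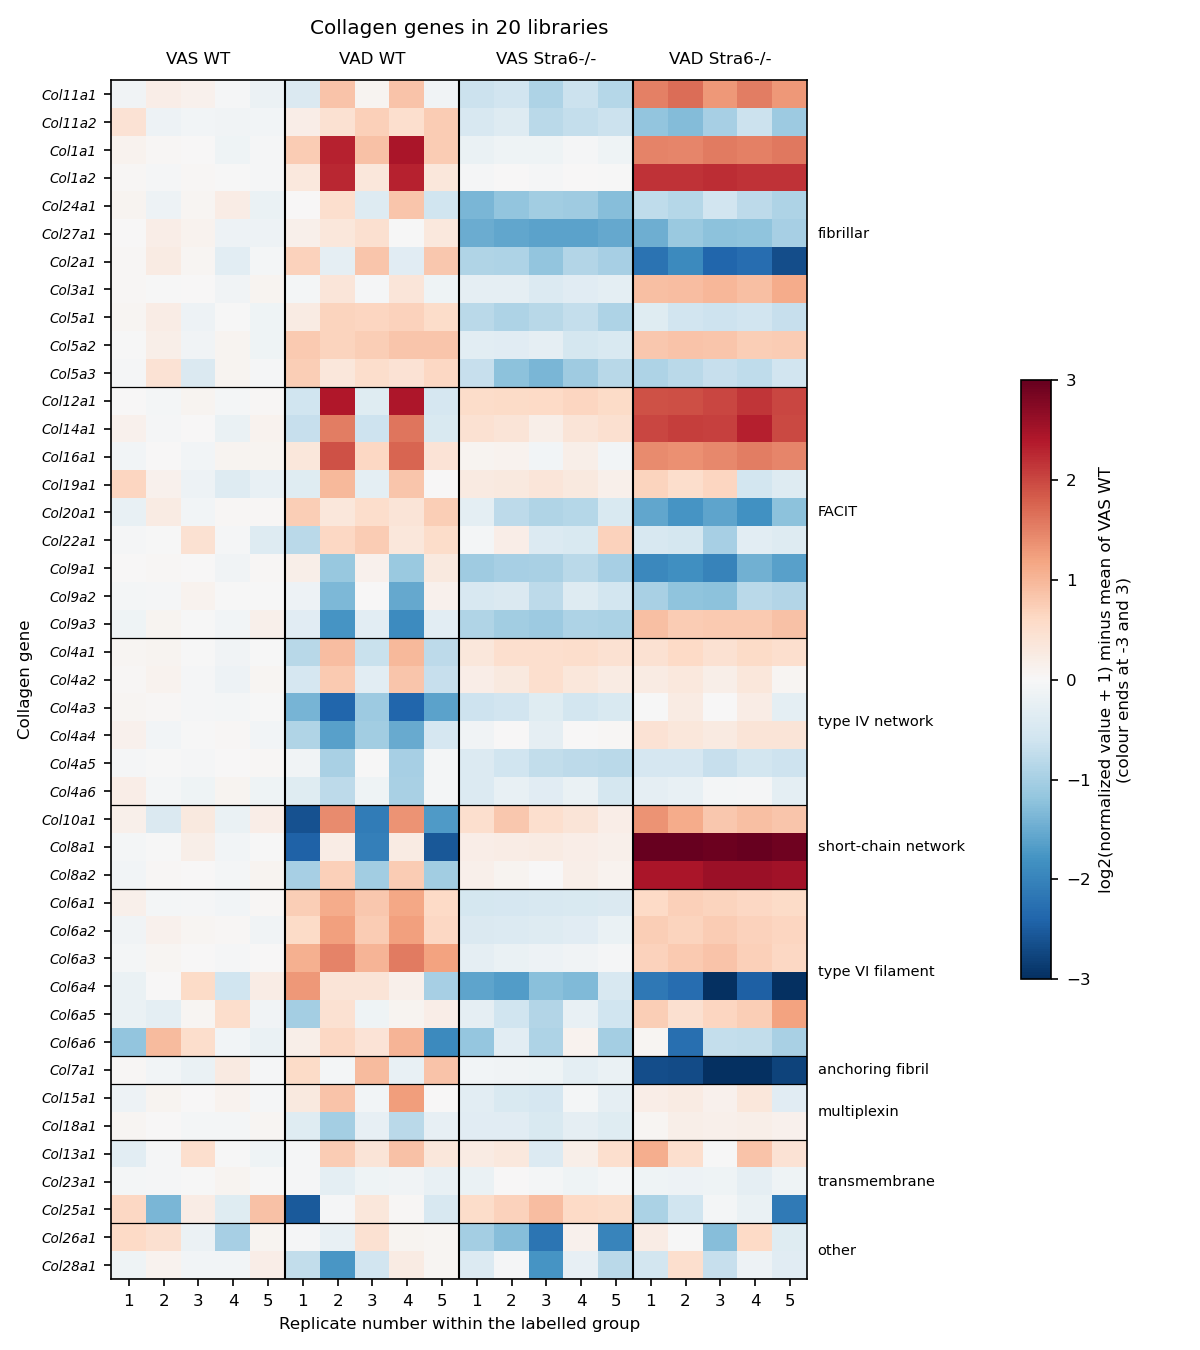
Each row is a collagen gene, grouped by structural class, and each column is a library, grouped by label and numbered by replicate. Colour is log2(normalized value + 1) minus the gene's mean over the 5 VAS WT libraries, from blue (lower) to red (higher). *Col8a1* and *Col8a2* are the darkest red and *Col7a1* and *Col6a4* the darkest blue in the libraries with the VAD *Stra6*-/- label, and replicates 2 and 4 of VAD WT differ from the other 3.

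The comparison of VAS *Stra6*-/- with VAS WT asks what loss of the retinol transporter does under adequate dietary vitamin A. Of the 43 collagen genes 18 were lower in VAS *Stra6*-/- and 0 were higher at an adjusted p under 0.05 (limma), beside 10.8% lower and 15.9% higher of all 18745 genes tested. The median log2 fold change was -0.35 over the collagen genes and 0.018 over all genes. 9 of the 11 fibrillar genes fell, and the other two, *Col1a1* and *Col1a2*, had log2 fold changes of -0.12 (adjusted p = 0.776) and -0.01 (adjusted p = 0.993). 3 of 9 FACIT genes (*Col9a1*, *Col9a3* and *Col20a1*), 2 of 6 type IV genes (*Col4a3* and *Col4a5*), 2 of 6 type VI genes (*Col6a1* and *Col6a2*), *Col18a1* and *Col26a1* fell as well. With all 4 groups in the fit, no collagen gene was higher at an unadjusted p under 0.05 in limma. Fitted to all 4 groups too, edgeR and DESeq2 on the recovered reads also called 0 higher, beside 14.2% and 18.2% of all genes. All these fits include VAD WT replicates 2 and 4 in their shared spread. Without these replicates limma called 6 collagen genes higher, beside 22.5% of all genes.

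Minor fibrillar chains were among the genes that fell furthest. *Col27a1* (chr4:63214004-63334991, plus strand), a fibrillar chain best known from cartilage, was 859, 974, 919, 769.7 and 765 in VAS WT and 302, 289.7, 279.6, 280.4 and 292 in VAS *Stra6*-/- in replicates 1 to 5. Every VAS *Stra6*-/- library lay below every VAS WT library, and the fold change was the largest of the family in this comparison (log2 fold change -1.56, SE 0.10, adjusted p = 4.77e-10). *Col24a1* (chr3:145292472-145552011, plus strand), a minor fibrillar chain of bone and cornea, was 164, 138, 162, 179.5 and 135 in VAS WT and 58.9, 68.0, 74.2, 73.5 and 63.7 in VAS *Stra6*-/-. These groups did not overlap either (log2 fold change -1.19, SE 0.22, adjusted p = 0.000331). *Col5a3* (chr9:20770050-20815067, minus strand), a type V chain that joins the core of type I fibrils, was 366, 501, 274, 394 and 361 in VAS WT and 231, 159, 142, 177 and 209.8 in VAS *Stra6*-/-, again without overlap (log2 fold change -1.04, SE 0.15, adjusted p = 2.11e-05). *Col2a1*, the chain of vitreous and cartilage fibrils, fell by 0.98 on the log2 scale (adjusted p = 0.000897), its partner in mixed fibrils *Col11a1* by 0.73 (adjusted p = 0.00559) and the vitreous FACIT chain *Col9a3* by 0.98 (adjusted p = 0.00367).

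*Col26a1*, a short secreted collagen with low counts here, was 55.0, 50.9, 32.1, 17.6 and 38.4 in VAS WT and 17.3, 14.3, 7.12, 39.7 and 8.43 in VAS *Stra6*-/-. The ranges overlapped, and its call (log2 fold change -1.27, SE 0.43, adjusted p = 0.0326) was lost without VAS WT replicate 1, 2 or 5 or VAS *Stra6*-/- replicate 2, 3 or 5 (adjusted p up to 0.0981) and in edgeR (adjusted p = 0.0607). The call of *Col4a3* (adjusted p = 0.0413) was lost without any 1 of the 10 VAS libraries or VAD *Stra6*-/- replicate 1 or 3 (adjusted p up to 0.0862) and with a replicate block (adjusted p = 0.0507), and that of *Col18a1* (adjusted p = 0.0231) on leaving out VAS WT replicate 1 or 5 or VAS *Stra6*-/- replicate 3 (adjusted p up to 0.0580). The shared spread of this model includes VAD WT replicates 2 and 4. Without them 23 collagen genes were lower and 6 higher, beside 17.6% and 22.5% of all genes, and with these groups fitted alone 24 were lower and 6 higher, beside 19.6% and 24.2% of all genes. The 6 higher without them were *Col4a1* (log2 fold change 0.46), *Col4a2* (0.32), *Col8a1* (0.21), *Col8a2* (0.10), *Col12a1* (0.59) and *Col14a1* (0.38), named after their values were seen. Of these, *Col4a1*, *Col4a2*, *Col12a1* and *Col14a1* were higher in every VAS *Stra6*-/- library than in any VAS WT library, and *Col8a1* and *Col8a2* overlapped. Skeletal muscle markers moved with this comparison: 8 of 8 were higher, with a summed value of 26487 to 30085 against 10366 to 12683 in VAS WT. The 8 fibrous connective tissue markers summed to 29062 to 29845 against 29260.4 to 30828, and their lowest adjusted p was 0.164. The ocular surface epithelium sum was 873588 to 908114 against 620222 to 752863 (1 of 8 markers higher and 1 lower), and the RPE sum 107333 to 112836 against 101396 to 117405 (2 of 8 lower). Without VAD WT replicates 2 and 4 in the fit, 3 of 8 fibrous markers were lower, and 6 of 8 epithelial markers were higher and 1 lower. Then 2 of 8 RPE markers were higher and 2 lower, 3 of 8 endothelial ones higher and 3 lower, and 8 of 8 muscle ones higher. Their part in the collagen result was not tested.

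The comparison of VAD WT with VAS WT asks what the deficient diet does when *Stra6* is labelled intact, and it shares the VAS WT libraries with the comparison above. 11 collagen genes rose and 6 fell, beside 3.29% higher and 5.52% lower of all genes tested. The median log2 fold change was 0.23 over the collagen genes and 0.003 over all genes. Higher were 6 of 11 fibrillar genes (*Col1a1*, *Col1a2*, *Col5a1*, *Col5a2*, *Col5a3* and *Col11a2*), 3 of 6 type VI genes (*Col6a1*, *Col6a2* and *Col6a3*) and 2 of 9 FACIT genes (*Col16a1* and *Col20a1*). Lower were 3 of 6 type IV genes (*Col4a3*, *Col4a4* and *Col4a6*), *Col8a1*, *Col9a3* and *Col18a1*. Without VAD WT replicates 2 and 4, 14 collagen genes were higher and 11 lower, beside 17.7% and 20.4% of all genes, and the median over the collagen genes was -0.057. Fitted on these groups alone, 8 were called (6 higher and 2 lower), beside 1.03% and 2.33% of all genes. Without VAS WT replicate 3, and likewise without VAS WT replicate 5, 11 were called (7 higher and 4 lower), beside 2.35% higher and 4.51% lower of all genes in the former and 2.37% and 4.44% in the latter.

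Among the risers, *Col5a3* was 619, 471, 536, 507 and 575 in VAD WT against the VAS WT values above (log2 fold change 0.53, SE 0.15, adjusted p = 0.0271; without replicates 2 and 4, log2 fold change 0.63, adjusted p = 0.00481). Its call was lost with these groups fitted alone (adjusted p = 0.0982) and without VAS WT replicate 1, 3 or 5 or VAD WT replicate 1 or 5 (adjusted p up to 0.0867). The type VI chains *Col6a1* and *Col6a3* were higher in every VAD WT library than in any VAS WT library. *Col6a1* (chr10:76708792-76726168, minus strand), a core chain of the beaded filament, was 2808, 2414, 2479, 2392 and 2582 in VAS WT and 4211, 5472, 4407, 5619.7 and 3829 in VAD WT. These groups did not overlap (log2 fold change 0.88, SE 0.086, adjusted p = 5.3e-07). *Col6a3* (chr1:90765923-90843971, minus strand), the long chain of the same filament, was 1120.1, 1196, 1173, 1127 and 1174 in VAS WT and 2423, 3236, 2333, 3409 and 2663 in VAD WT, again with no overlap (log2 fold change 1.26, SE 0.089, adjusted p = 4.49e-09). Without VAD WT replicates 2 and 4 both rises remained (*Col6a1* log2 fold change 0.71, adjusted p = 1.68e-09, and *Col6a3* log2 fold change 1.09, adjusted p = 1.02e-11).

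Type I collagen, the main protein of sclera and corneal stroma, was split among the VAD WT libraries. *Col1a1* (chr11:94936224-94953042, plus strand) was 7508, 7170.1, 7109, 6456 and 6840.2 in VAS WT and 11869, 34989.9, 12984, 38362 and 11859 in VAD WT. All VAD WT libraries were above VAS WT, and replicates 2 and 4 were far above the other 3. The rise (log2 fold change 1.44, SE 0.25, adjusted p = 0.000645) remained without these replicates (log2 fold change 0.80, adjusted p = 3.77e-11), while a fit on these groups alone gave an adjusted p of 0.0674. *Col1a2* (chr6:4504814-4541544, plus strand), the other chain of the type I molecule, was 7301, 6978, 7255, 7109 and 6969 in VAS WT and 8850.2, 34204, 8959, 35162 and 8984 in VAD WT. It rose too (log2 fold change 1.11, SE 0.30, adjusted p = 0.0244), and without replicates 2 and 4 its fold change was smaller (log2 fold change 0.33, adjusted p = 1.05e-07), and the call was lost with these groups fitted alone (adjusted p = 0.256) and without VAS WT replicate 2, 3, 4 or 5 (adjusted p up to 0.0540).

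Several basement membrane chains fell. *Col4a3* (chr1:82586921-82722059, plus strand), a chain of the specialised network of the RPE and kidney basement membranes, was 1981, 1938, 1870.4, 1839.9 and 1904 in VAS WT and 725, 365, 888, 365 and 629 in VAD WT. Every VAD WT library was below every VAS WT library (log2 fold change -1.77, SE 0.18, adjusted p = 1.03e-06; without replicates 2 and 4, log2 fold change -1.36, adjusted p = 1.5e-09). Its exons share 563 bases with *C430014B12Rik* on the opposite strand, and reads of the pair cannot be told apart where strand was not used in counting. *Col4a4* (chr1:82448423-82586849, minus strand), the neighbour gene and molecular partner of *Col4a3*, was 800.1, 684, 724, 739 and 689 in VAS WT and 387, 233, 350.5, 252 and 515 in VAD WT, with no overlap (log2 fold change -1.12, SE 0.15, adjusted p = 2.64e-05; without replicates 2 and 4, log2 fold change -0.82, adjusted p = 1.14e-06). *Col18a1*, the source of endostatin, was 5032, 4830.1, 4625, 4580.3 and 4984 in VAS WT and 3729, 2380.4, 4051, 2723 and 4038 in VAD WT, also with no overlap (log2 fold change -0.54, SE 0.11, adjusted p = 0.00315; without replicates 2 and 4, log2 fold change -0.29, adjusted p = 6.19e-05). The call of *Col18a1* was lost with these groups fitted alone (adjusted p = 0.0988). Outside the basement membrane, *Col9a3* was 4749, 5459, 5104, 4887 and 5701 in VAS WT and 4064, 1522, 4170.0, 1398 and 4181 in VAD WT, lowest in replicates 2 and 4 (log2 fold change -0.92, SE 0.24, adjusted p = 0.0167). Its fold change was smaller without these replicates (log2 fold change -0.32, adjusted p = 0.000116), and the call was lost with these groups fitted alone (adjusted p = 0.22).

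*Col8a1* (chr16:57624258-57754737, minus strand), a short-chain collagen of Descemet's membrane and vessels, was 1268, 1327, 1504, 1246 and 1307 in VAS WT and 248, 1539, 318, 1585 and 227 in VAD WT. Replicates 2 and 4 were above the VAS WT libraries and replicates 1, 3 and 5 far below them. The call of a fall (log2 fold change -1.31, SE 0.40, adjusted p = 0.0439) was lost in edgeR (adjusted p = 0.272), in DESeq2 (adjusted p = 0.255) and on leaving out any library other than VAD WT replicate 2 or 4 (adjusted p up to 0.138), whereas without replicates 2 and 4 the fall was larger (log2 fold change -2.34, adjusted p = 5.67e-15). *Col8a2*, its partner chain, was 3084, 3329.9, 3306, 3136 and 3472 in VAS WT and 1626, 5380.0, 1589, 5557 and 1584 in VAD WT, with the same split and no call (log2 fold change -0.32, SE 0.28, adjusted p = 0.553). Without replicates 2 and 4 it was lower (log2 fold change -1.03, adjusted p = 4.25e-13). *Col14a1* turned its direction: its log2 fold change was 0.27 (adjusted p = 0.703), and -0.59 without them (adjusted p = 3.9e-05).

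Markers of other tissues split along the same libraries. In VAD WT replicates 1 to 5 the summed value of 8 fibrous connective tissue markers was 26793, 90903, 27739.8, 90855 and 27675, beside 29260.4 to 30828 in VAS WT. The sum of 8 ocular surface epithelium markers was 1166978, 405120.2, 1135864, 399787 and 1148551, beside 620222 to 752863. Replicates 2 and 4 were thus high in fibrous markers and low in epithelial ones. The endothelial sum was 5468, 15709, 5712, 16306 and 5509.9, beside 9018 to 9566, and the skeletal muscle sum 3338, 12729, 3451, 11964 and 3495, beside 10366 to 12683. Of the marker lists, 7 of 8 RPE markers were lower in VAD WT, 4 of 8 skeletal muscle markers were lower, 2 of 8 epithelial markers were lower and 1 of 8 fibrous markers was higher. Without replicates 2 and 4 the lower markers were 7 of 8 for RPE, 8 of 8 for skeletal muscle, 8 of 8 for endothelium, 6 of 8 for fibrous tissue (1 higher) and 2 of 8 for ocular surface epithelium (6 higher). Their part in the collagen values was not tested.

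**Figure D2:**
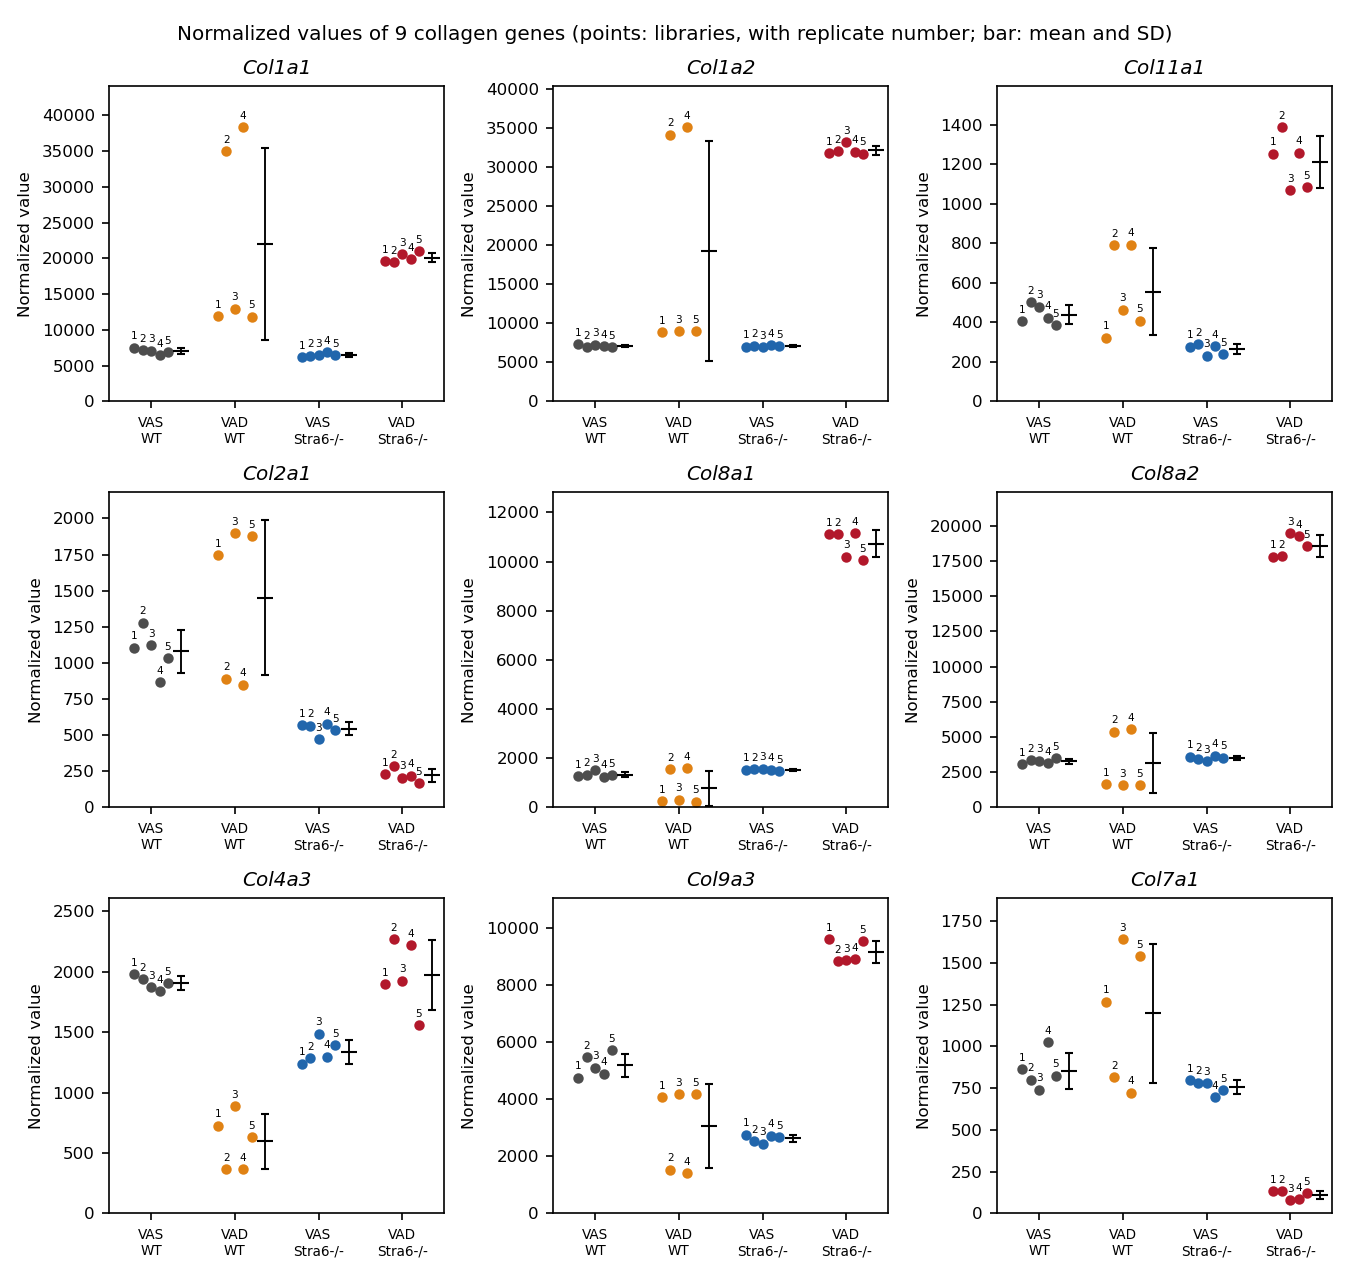
Each panel plots the normalized value (vertical axis, from 0) of a collagen gene in the 20 libraries. Points are libraries, numbered by replicate, and the black mark and bar at the right of each group are the mean and SD over 5 libraries. In VAD WT replicates 2 and 4 lie apart from the other 3 in the panels, and *Col8a1* and *Col8a2* are highest in the libraries with the VAD *Stra6*-/- label.

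The libraries with the VAD *Stra6*-/- label were compared with VAS *Stra6*-/- to follow the diet in the absence of the transporter, a comparison that shares the VAS *Stra6*-/- libraries with the one of the genotypes. 21 of 43 collagen genes rose and 7 fell, beside 24.5% higher and 28.9% lower of all genes tested, and the median log2 fold change was 0.41 over the collagen genes and -0.067 over all genes. For 22 collagen genes every library with the VAD *Stra6*-/- label lay above every VAS *Stra6*-/- library, and for 7 every one lay below. The share of all genes without overlap was not counted, so that these counts have no background to be read against. Risers were 7 of 11 fibrillar genes (*Col1a1*, *Col1a2*, *Col3a1*, *Col5a1*, *Col5a2*, *Col11a1* and *Col27a1*), 4 of 6 type VI genes (*Col6a1*, *Col6a2*, *Col6a3* and *Col6a5*), 4 of 9 FACIT genes (*Col9a3*, *Col12a1*, *Col14a1* and *Col16a1*), both type VIII genes, 2 of 6 type IV genes (*Col4a3* and *Col4a4*), *Col18a1* and *Col26a1*. The 7 that fell were *Col2a1*, *Col6a4*, *Col7a1*, *Col9a1*, *Col11a2*, *Col20a1* and *Col25a1*.

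Type VIII collagen rose most. *Col8a1* was 1532, 1558, 1579, 1535 and 1466 in VAS *Stra6*-/- and 11128, 11113, 10200.1, 11158 and 10052 in the libraries with the VAD *Stra6*-/- label, a 6.98-fold rise with no overlap (log2 fold change 2.80, SE 0.40, adjusted p = 3.87e-06). Its promoter is the one printed above with 4 GC boxes. *Col8a2* (chr4:126286793-126314330, plus strand) was 3607, 3434, 3302, 3681 and 3522 in VAS *Stra6*-/- and 17815, 17839, 19486, 19261 and 18583 in the libraries with the VAD *Stra6*-/- label, a 5.3-fold rise (log2 fold change 2.41, SE 0.28, adjusted p = 1.8e-07). The third short-chain gene, *Col10a1*, known from growth plate cartilage, did not pass the test (log2 fold change 0.52, SE 0.58, adjusted p = 0.475).

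Among fibrillar chains *Col1a2* and *Col11a1* had the largest rises. *Col1a2* was 6994, 7143, 6930.4, 7202 and 7089 in VAS *Stra6*-/- and 31824, 32060.5, 33202, 32017 and 31774 in the libraries with the VAD *Stra6*-/- label (4.55-fold; log2 fold change 2.19, SE 0.30, adjusted p = 2.75e-06). *Col11a1* (chr3:114030540-114220718, plus strand), a chain that limits fibril diameter, was 277, 291, 231, 279.5 and 239.8 and 1253, 1388, 1071, 1259 and 1086 in the same groups (4.58-fold; log2 fold change 2.19, SE 0.19, adjusted p = 1.91e-09). In both genes all libraries with the VAD *Stra6*-/- label lay far above all VAS *Stra6*-/- libraries. *Col1a1* was 6153, 6406, 6427, 6832 and 6442 in VAS *Stra6*-/- and 19636, 19434, 20618, 19864 and 20969.9 in the libraries with the VAD *Stra6*-/- label (3.12-fold; log2 fold change 1.64, SE 0.25, adjusted p = 9.22e-06). The other abundant stromal chain, *Col3a1*, rose 2.43-fold (adjusted p = 5.42e-11), *Col5a2* 2.27-fold (adjusted p = 4.4e-12) and *Col5a1* 1.21-fold (adjusted p = 0.0158).

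The FACIT genes divided. *Col9a3* (chr2:180597790-180622189, plus strand) was 2748, 2519, 2434, 2719 and 2676 in VAS *Stra6*-/- and 9597, 8815, 8856, 8894 and 9519 in the libraries with the VAD *Stra6*-/- label (3.49-fold; log2 fold change 1.80, SE 0.24, adjusted p = 1.31e-06). Its exons share 234 bases with *Tcfl5* on the opposite strand. *Col14a1* (chr15:55307750-55520803, plus strand), found with type I fibrils in tendon and skin, was 531, 503, 433, 508 and 538 and 1537, 1636, 1593, 1935 and 1525 (3.27-fold; log2 fold change 1.71, SE 0.34, adjusted p = 0.000207). Both rises were without overlap. *Col12a1* and *Col16a1* rose 2.66-fold and 2.65-fold (adjusted p = 0.0107 and 1.25e-05). *Col9a1*, which forms the type IX molecule with *Col9a3* and *Col9a2*, fell by 0.80 on the log2 scale (adjusted p = 0.00384), and *Col20a1* fell by 0.93 (adjusted p = 2.19e-05).

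*Col7a1* (chr9:108953586-108984875, plus strand), the anchoring fibril chain of stratified epithelia, fell furthest among genes with a group mean of at least 50. It was 864, 801, 741, 1027 and 825 in VAS WT, 1269, 816, 1643, 722 and 1540.3 in VAD WT, 796, 784, 779, 696 and 739 in VAS *Stra6*-/- and 134, 131, 79.8, 83.4 and 123 in the libraries with the VAD *Stra6*-/- label. The last group lay below every other library (log2 fold change -2.81, SE 0.20, adjusted p = 7.82e-11). *Col2a1* (chr15:97975602-98004695, minus strand) was 571, 565, 469.8, 579 and 534 in VAS *Stra6*-/- and 229, 286, 205, 219 and 168 in the libraries with the VAD *Stra6*-/- label (log2 fold change -1.31, SE 0.20, adjusted p = 1e-05). *Col25a1*, a membrane-spanning chain best known from neurons, was 87.4, 95.5, 113, 89.5 and 87.1 and 30.2, 38.8, 56.3, 50.9 and 12.7 (log2 fold change -1.45, SE 0.50, adjusted p = 0.0182), and this call was lost without VAD *Stra6*-/- replicate 5 (adjusted p = 0.0666). The low-count *Col6a4* was 15.2, 14.3, 19.3, 18.6 and 33.7 and 10.1, 9.02, 0, 7.9 and 0 (log2 fold change -2.35, SE 0.63, adjusted p = 0.0031), listed at 0 in replicates 3 and 5 of the latter. *Col26a1* was 17.3, 14.3, 7.12, 39.7 and 8.43 and 42.3, 36.1, 14.3, 55.3 and 27.9, with overlap, and its call (adjusted p = 0.0349) was lost in edgeR (adjusted p = 0.105), in DESeq2 (adjusted p = 0.0843), with these groups fitted alone (adjusted p = 0.0757) and without VAS *Stra6*-/- replicate 2, 3 or 5 or VAD *Stra6*-/- replicate 1, 2 or 4 (adjusted p up to 0.105).

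The type IV genes moved little between these groups. *Col4a1* (chr8:11198423-11312826, minus strand), a chain of all basement membranes and the most abundant type IV gene, was 2119.9, 2372, 2392, 2415 and 2299.8 in VAS *Stra6*-/- and 2317, 2538, 2310.2, 2509.6 and 2409 in the libraries with the VAD *Stra6*-/- label (log2 fold change 0.06, SE 0.27, adjusted p = 0.876). *Col4a3* was 1239, 1282, 1487, 1296 and 1392 and 1896, 2269, 1926, 2218 and 1556 (log2 fold change 0.55, SE 0.18, adjusted p = 0.0145), and *Col4a4* 679, 734, 599.9, 727 and 747 and 975, 919, 879, 951 and 948 (log2 fold change 0.43, SE 0.15, adjusted p = 0.0189). These rises were small and without overlap, and that of *Col4a4* was lost without VAS *Stra6*-/- replicate 3 (adjusted p = 0.0552). *Col18a1* was 3789.8, 3826, 3522, 4008 and 3708 and 5022, 5439, 5358, 5447 and 5231 (log2 fold change 0.49, SE 0.11, adjusted p = 0.000783). *Col23a1* (chr11:51289920-51583918, plus strand), the most abundant membrane-spanning chain, was 1492, 1741, 1632, 1568 and 1646 and 1569.7, 1543, 1554, 1424 and 1558. Its ranges overlapped (log2 fold change -0.078, SE 0.06, adjusted p = 0.298), and its lowest adjusted p in the 5 comparisons was 0.108, for VAD WT against VAS WT (log2 fold change -0.16).

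Marker genes of other tissues moved with this comparison. All 8 fibrous connective tissue markers were higher, with a summed value of 167912 to 178784 against 29062 to 29845 in VAS *Stra6*-/-. Its defining markers *Dcn* and *Lum* were 112126 to 123369.9 against 16050.0 to 16634 and 9783 to 10585 against 2329 to 2529.6. 7 of 8 RPE markers were higher (summed value 464344 to 505088 against 107333 to 112836). All 8 ocular surface epithelium markers were lower, with a summed value of 23814 to 31369 against 873588 to 908114, and the defining markers *Krt12* and *Krt5* were 2179 to 3433 against 271708 to 283743 and 6495 to 8438 against 248808 to 263984. 4 of 8 endothelial markers were higher and 3 of 8 skeletal muscle markers lower. The part of these in the collagen values was not tested.

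**Figure D3:**
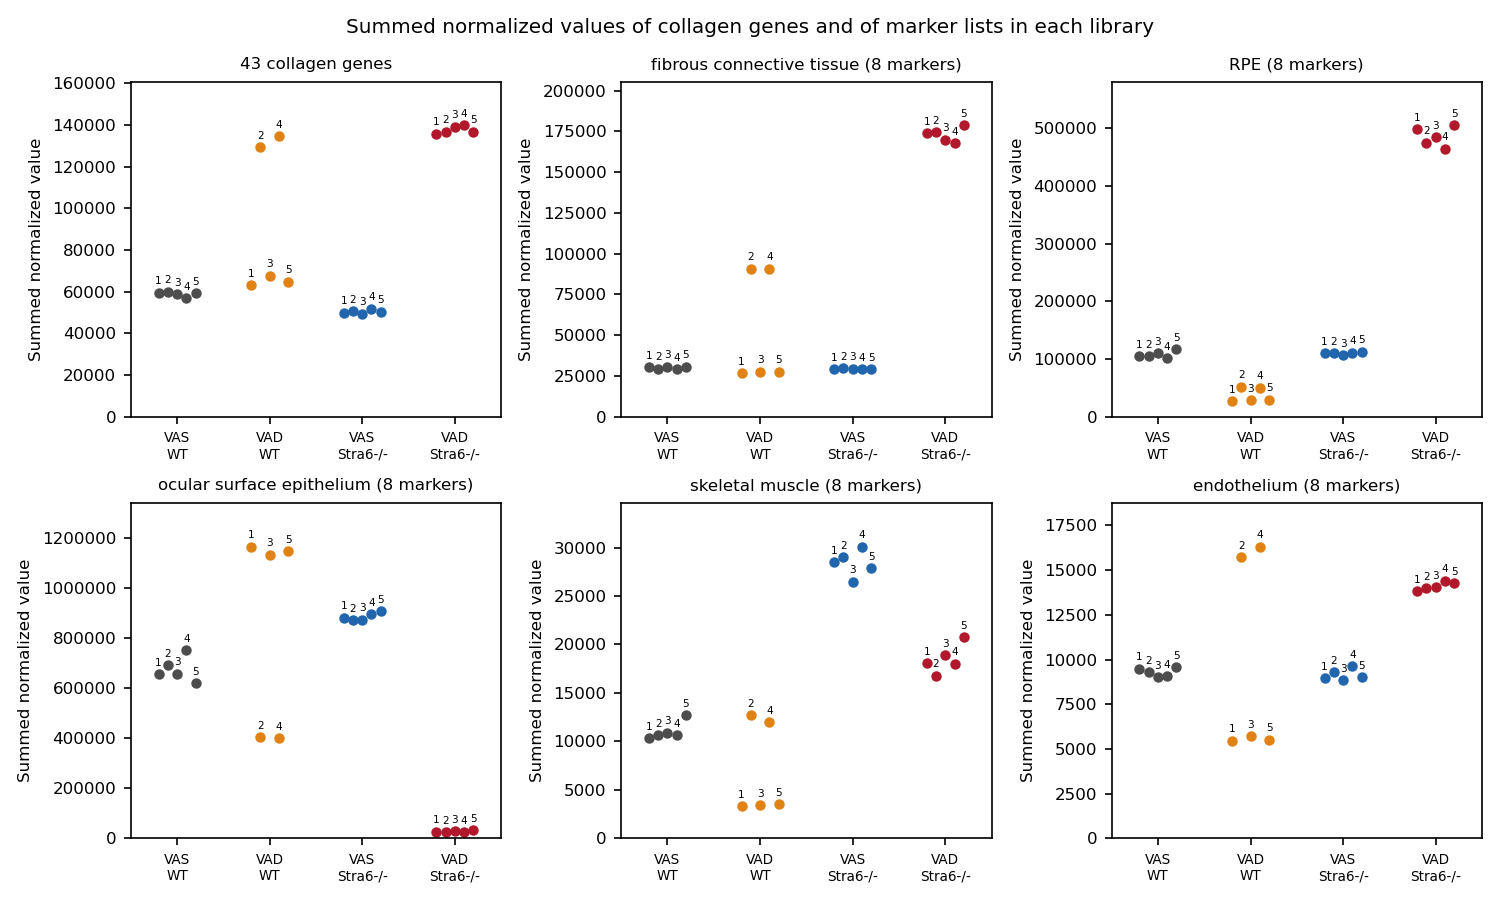
Summed normalized values of the 43 collagen genes and of 5 lists of 8 marker genes in each library (vertical axes from 0). Points are libraries, numbered by replicate. The collagen sum and the fibrous connective tissue sum are high in the libraries with the VAD *Stra6*-/- label and in VAD WT replicates 2 and 4, where the ocular surface epithelium sum is low.

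The libraries with the VAD *Stra6*-/- label were also set against VAD WT, the comparison of genotypes under the deficient diet. It shares libraries with both diet comparisons. 13 collagen genes were higher and 13 lower, beside 26.3% and 29.7% of all genes tested, so that neither share was far from that of all genes. edgeR and DESeq2 on the recovered reads each called 10 higher and 15 lower, beside 22.5% and 30.5% of all genes in edgeR and 25.1% and 31.7% in DESeq2. The median log2 fold change was -0.002 over the collagen genes and -0.054 over all genes. Without VAD WT replicates 2 and 4, 17 were higher and 13 lower, beside 30.8% and 32.6%. All 8 fibrous, all 8 skeletal muscle, 7 of 8 RPE and 5 of 8 endothelial markers were higher and all 8 ocular surface epithelium markers lower (the RPE sum was 464344 to 505088 against 27572 to 52015, and the muscle sum 16796 to 20769 against 3338 to 12729). Without VAD WT replicates 2 and 4 the marker counts were the same except that 8 of 8 endothelial markers were higher, and the part of these markers was not tested. All 3 short-chain genes were higher, as were *Col9a3*, *Col12a1*, *Col14a1* and *Col18a1*. Of the 11 fibrillar genes 3 were higher (*Col1a2*, *Col3a1* and *Col11a1*) and 6 lower (*Col2a1*, *Col5a1*, *Col5a3*, *Col11a2*, *Col24a1* and *Col27a1*). Of the type VI genes *Col6a5* was higher and *Col6a1*, *Col6a3* and *Col6a4* were lower, and *Col4a3* and *Col4a4* were higher. The FACIT genes *Col20a1* (log2 fold change -2.14, adjusted p = 1.21e-10), *Col9a1* (-1.44, adjusted p = 9.34e-06) and *Col22a1* (-0.83, adjusted p = 0.0226) and the anchoring fibril gene *Col7a1* were lower.

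Against the VAD WT values given above, *Col8a1* was higher (log2 fold change 4.32, SE 0.40, adjusted p = 7.32e-09) and so was *Col8a2* (log2 fold change 2.83, SE 0.28, adjusted p = 1.65e-08), with no overlap in either. *Col14a1* was 238, 1115, 249.7, 1165 and 278 in VAD WT, and the libraries with the VAD *Stra6*-/- label lay above all of these (log2 fold change 1.82, SE 0.34, adjusted p = 0.000101). *Col7a1* (log2 fold change -3.39, SE 0.20, adjusted p = 3.82e-12) and *Col2a1* (log2 fold change -2.64, SE 0.20, adjusted p = 3.39e-10) were lower, and *Col2a1* was 1744, 890.0, 1898, 849.9 and 1878 in VAD WT. *Col6a4* was 119, 62.8, 62.4, 53.1 and 23.4 in VAD WT, all above the libraries with the VAD *Stra6*-/- label (log2 fold change -3.86, SE 0.63, adjusted p = 1.91e-05). These 6 genes kept their direction and their call without VAD WT replicates 2 and 4, with log2 fold changes of 5.35, 3.54, 2.68, -3.77, -3.07 and -3.84.

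Type I collagen depended on the 2 libraries. *Col1a1* did not pass the test with all libraries (log2 fold change 0.084, SE 0.25, adjusted p = 0.803), as VAD WT replicates 2 and 4 lay above and the other 3 below the libraries with the VAD *Stra6*-/- label, and without them it was higher (log2 fold change 0.72, adjusted p = 2.45e-11). *Col1a2* passed with all libraries (log2 fold change 1.07, SE 0.30, adjusted p = 0.00496) and without these 2 (log2 fold change 1.85, adjusted p = 2.22e-21), but not in edgeR (adjusted p = 0.0725), in DESeq2 (adjusted p = 0.0729) or with these groups fitted alone (adjusted p = 0.0766). *Col4a1* was 949, 3189, 1057, 3292 and 981 in VAD WT, and it missed the threshold with all libraries (adjusted p = 0.0617) and passed it without replicate 2, without replicate 4 and without both (log2 fold change 1.28, adjusted p = 1.19e-14). *Col6a1* decreased by 0.24 on the log2 scale (adjusted p = 0.0201), and this was lost without replicate 2 (adjusted p = 0.0617), without replicate 4 (adjusted p = 0.0633), without both (adjusted p = 0.248) and with these groups fitted alone (adjusted p = 0.0922).

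**Figure D4:**
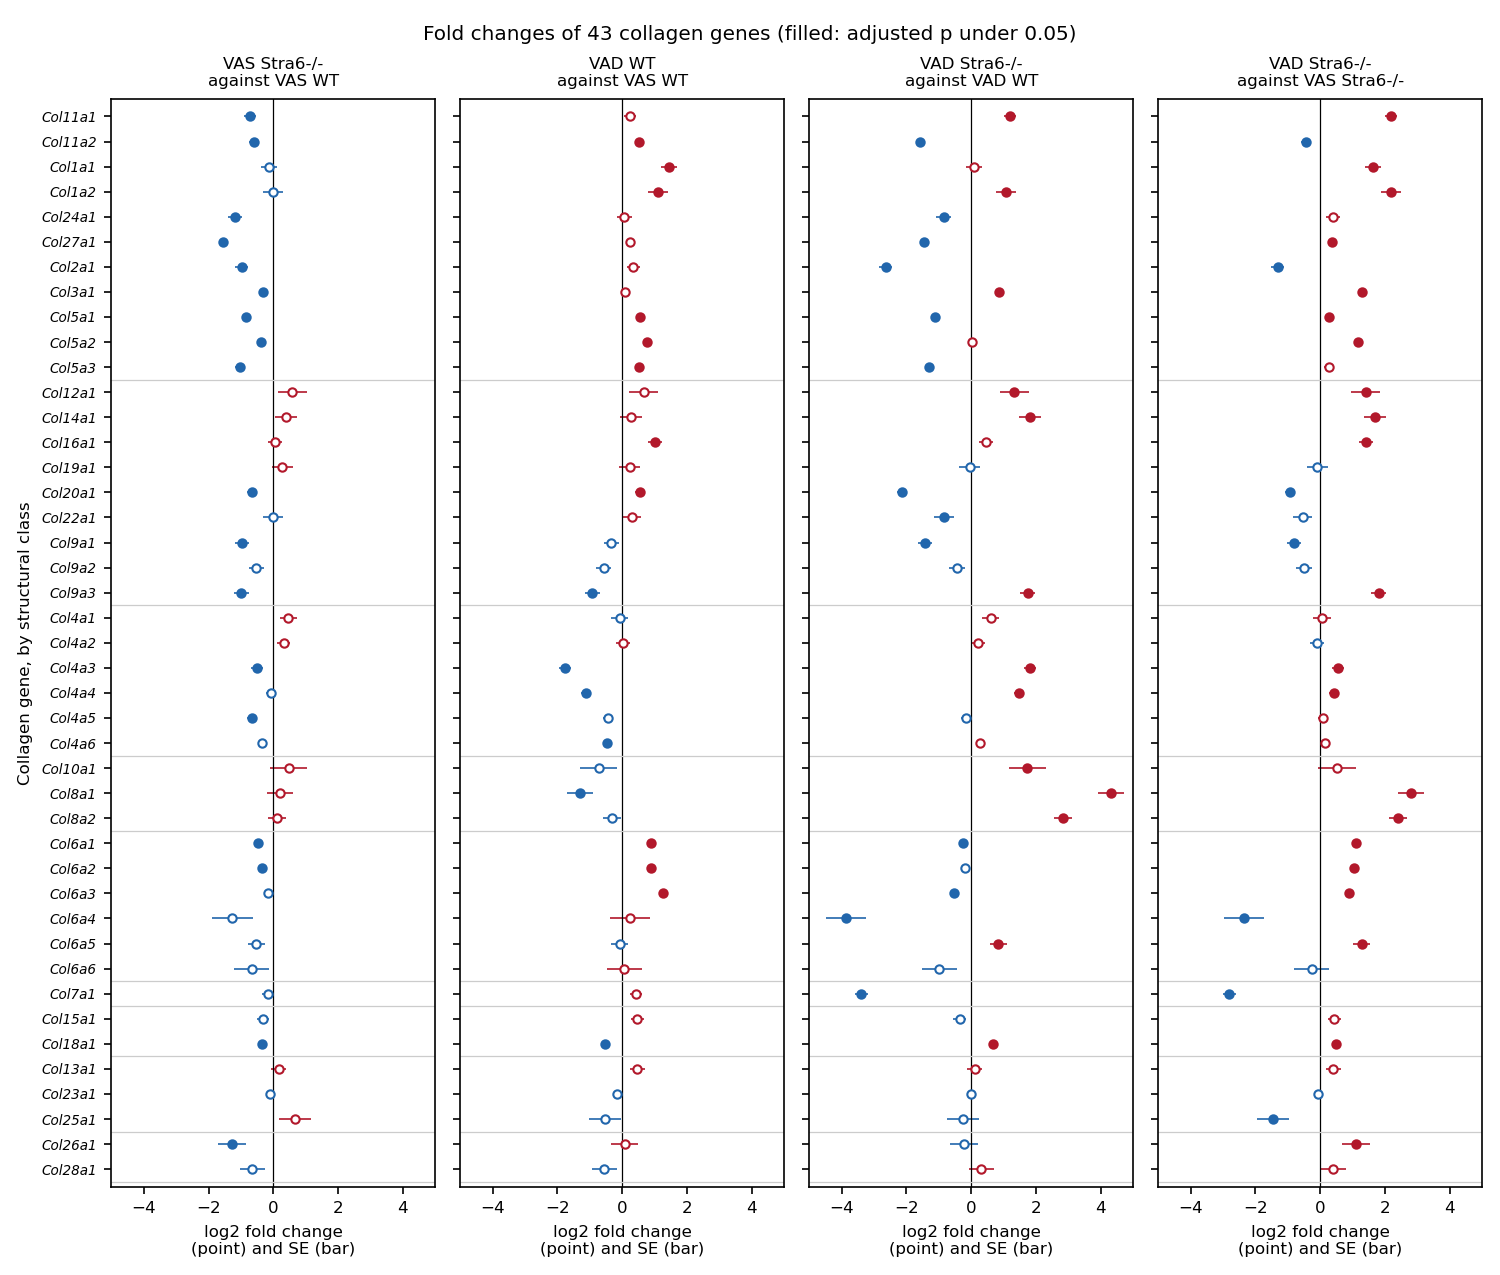
Each row is a collagen gene, ordered by structural class, and each panel is a comparison of 2 labelled groups. Points are log2 fold changes on the log2(normalized value + 1) scale and bars are standard errors; filled points have an adjusted p under 0.05, red points are above 0 and blue points below. In the first panel all filled points lie below 0, and in the last panel *Col8a1* and *Col8a2* lie furthest to the right.

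The interaction asks whether the diet effect differed between genotypes. It passed the test for 19 collagen genes, with a more positive diet effect under the *Stra6*-/- label for 13 (all genes, 19.6%) and a more negative one for 6 (all genes, 24.9%). Without VAD WT replicates 2 and 4 these counts were 22 and 8 (all genes, 25.8% and 29.1%). As the libraries are labelled, the difference between the 2 diet effects was largest for *Col8a1* (log2 difference 4.11, SE 0.56, adjusted p = 3.77e-06), *Col7a1* (log2 difference -3.23, SE 0.28, adjusted p = 4.39e-09), *Col9a3* (log2 difference 2.72, SE 0.34, adjusted p = 8.57e-07) and *Col8a2* (log2 difference 2.72, SE 0.39, adjusted p = 6.39e-06). *Col9a3*, *Col4a3* (log2 difference 2.32, SE 0.26, adjusted p = 1.91e-07), *Col4a4* (log2 difference 1.55, SE 0.21, adjusted p = 2.93e-06) and *Col18a1* (log2 difference 1.03, SE 0.16, adjusted p = 1.51e-05) fell with the diet in WT and rose with it under the *Stra6*-/- label. So did *Col8a1*, but its fall in WT was absent from replicates 2 and 4. The call of that fall was lost in edgeR, in DESeq2 and with VAD WT and VAS WT fitted alone (adjusted p = 0.319). In the same fit on 2 groups the calls of the falls of *Col9a3* and *Col18a1* in WT were lost too (adjusted p = 0.22 and 0.0988). *Col2a1* (log2 difference -1.66, SE 0.28, adjusted p = 5.8e-05) and *Col6a4* (log2 difference -2.60, adjusted p = 0.0209) had a more negative diet effect under the *Stra6*-/- label, and *Col11a1* a more positive one (log2 difference 1.94, adjusted p = 3.35e-06). *Col11a2* and *Col20a1* rose with the diet in WT and fell with it under the *Stra6*-/- label (log2 differences -0.97 and -1.48, adjusted p = 0.000559 and 8.33e-06). The interaction of *Col1a2* (log2 difference 1.08, adjusted p = 0.0471) was lost on leaving out any library other than VAD WT replicate 2 or 4 (adjusted p up to 0.102), in edgeR (adjusted p = 0.195) and in DESeq2 (adjusted p = 0.228), and that of *Col14a1* in edgeR (adjusted p = 0.0936) and DESeq2 (adjusted p = 0.105). The same test called 7 of 8 fibrous and 7 of 8 RPE markers more positive and 8 of 8 ocular surface epithelium markers more negative. Without VAD WT replicates 2 and 4 these counts were 8, 7 and 8. More positive endothelial markers went from 4 to 8 of 8, and skeletal muscle ones from 0 to 7. The part of these markers was not tested. The direction, the size and the order of these differences rest on the labels. The *Stra6* level, taken without regard to the RPE marker sum, is the reverse of the VAD labels. Set against that sum, *Stra6* was lower under both *Stra6*-/- labels than under both WT labels.

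Some chains that share a molecule did not keep a fixed ratio. Ratios were taken per kilobase of transcript in each library, and are given as ranges with no test because the pairs were chosen after the values were known. *Col6a2* to *Col6a1* was steady, at 0.515 to 0.697 in VAS WT, 0.647 to 0.727 in VAS *Stra6*-/-, 0.543 to 0.664 in VAD WT and 0.589 to 0.675 in the libraries with the VAD *Stra6*-/- label. *Col1a2* to *Col1a1* was 1.08 to 1.22 in VAS WT and 1.17 to 1.26 in VAS *Stra6*-/-, 0.765 to 1.08 in VAD WT and 1.68 to 1.83 in the libraries with the VAD *Stra6*-/- label. It was thus highest in the libraries with the VAD *Stra6*-/- label, without overlap, and lowest in VAD WT. The type I molecule holds more *Col1a1* than *Col1a2* chains. *Col5a2* to *Col5a1* was 0.759 to 0.849 in VAS WT, 0.899 to 1.21 in VAS *Stra6*-/-, 0.798 to 1.17 in VAD WT and 1.8 to 2.18 in the libraries with the VAD *Stra6*-/- label.

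The widest splits were in types IX and XI. *Col9a3* to *Col9a1* was 4.95 to 5.86 in VAS WT, 5.01 to 6.1 in VAS *Stra6*-/-, 3.21 to 4.05 in VAD WT and 25.7 to 38.7 in the libraries with the VAD *Stra6*-/- label, which did not overlap any other group. *Col9a1* was 312, 331, 298, 436 and 382 there and 567, 598, 611, 678 and 598 in VAS *Stra6*-/-. *Col9a2* to *Col9a1* moved less, and was 0.655 to 0.743 in VAS WT, 0.783 to 1.04 in VAS *Stra6*-/-, 0.518 to 0.643 in VAD WT and 1.07 to 1.33 in the libraries with the VAD *Stra6*-/- label. *Col11a2* to *Col11a1* was 0.892 to 1.64 in VAS WT, 1.08 to 1.34 in VAS *Stra6*-/-, 0.867 to 2.06 in VAD WT and 0.145 to 0.253 in the libraries with the VAD *Stra6*-/- label. *Col11a2* was 251, 268, 199, 213 and 226 in VAS *Stra6*-/- and 153, 142, 175, 224 and 164 in the libraries with the VAD *Stra6*-/- label (log2 fold change -0.44, SE 0.14, adjusted p = 0.0141). This was a fall, with overlap, beside the rise of *Col11a1*, and the promoters of both are printed above. *Col8a2* to *Col8a1* was 2.59 to 3.13 in VAS WT, 2.47 to 2.83 in VAS *Stra6*-/-, 4.12 to 8.21 in VAD WT and 1.89 to 2.25 in the libraries with the VAD *Stra6*-/- label. In type IV, *Col4a2* to *Col4a1*, whose genes share a start region, stayed between 0.726 and 1.28 in all libraries. *Col4a4* to *Col4a3*, also partner chains, was 0.299 to 0.342 in VAS WT and 0.342 to 0.485 in VAS *Stra6*-/-. It was 0.334 to 0.692 in VAD WT and 0.343 to 0.516 in the libraries with the VAD *Stra6*-/- label. *Col4a3* to *Col4a1*, not a pair of partner chains, was 0.843 to 0.915 in VAS WT and 0.415 to 0.48 in VAS *Stra6*-/-. This last ratio was 0.0859 to 0.65 in VAD WT, lowest in replicates 2 and 4, and 0.499 to 0.691 in the libraries with the VAD *Stra6*-/- label.

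**Figure D5:**
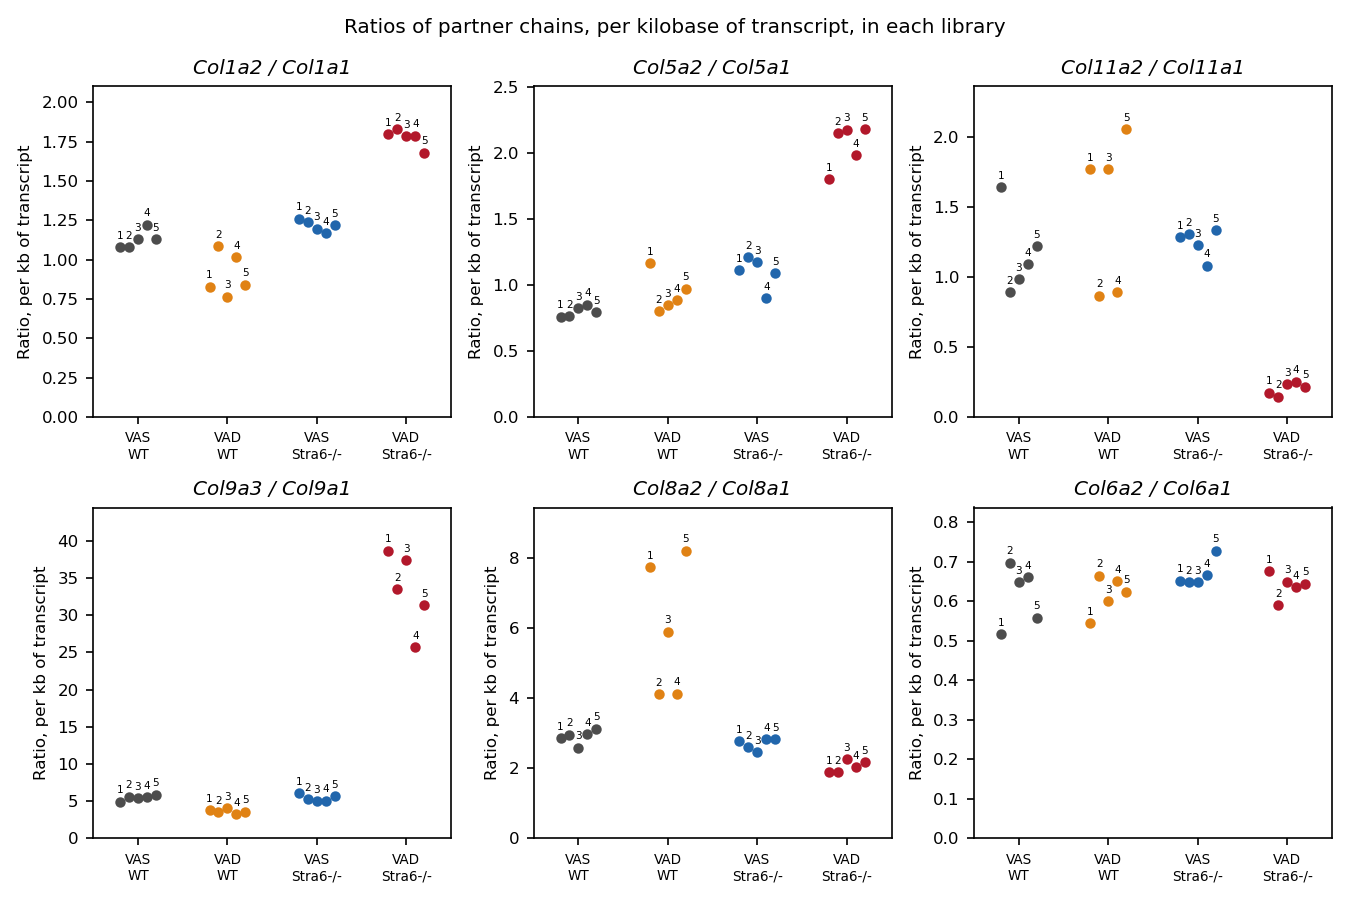
Each panel plots the ratio of a pair of partner chains, per kilobase of transcript (vertical axis, from 0), in the 20 libraries. Points are libraries, numbered by replicate. *Col6a2* to *Col6a1* stays in 1 band over the 4 groups, whereas the libraries with the VAD *Stra6*-/- label lie above all others for *Col1a2* to *Col1a1*, *Col5a2* to *Col5a1* and *Col9a3* to *Col9a1* and below all others for *Col11a2* to *Col11a1* and *Col8a2* to *Col8a1*.

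Genes that process collagen were read from 3 lists, and the shares of all genes given here for each comparison apply to all 3. Enzymes and chaperones of chain modification and folding (18 genes) hydroxylate, glycosylate and fold the chains. Between the libraries with the VAD *Stra6*-/- label and VAS *Stra6*-/- 12 were higher and 1 lower, beside 24.5% and 28.9% of all genes. The median log2 fold change was 0.52, beside -0.067 over all genes. *Crtap*, a partner of prolyl 3-hydroxylase, was 1065 to 1202 in VAS *Stra6*-/- and 2614 to 3175 in the libraries with the VAD *Stra6*-/- label (log2 fold change 1.33, SE 0.14, adjusted p = 4.54e-08), and *Serpinh1*, the collagen chaperone HSP47, was 3639 to 3757 and 7813 to 9205 (log2 fold change 1.195, SE 0.12, adjusted p = 4.12e-08). The ranges did not overlap in either gene. *P3h2*, a prolyl 3-hydroxylase of basement membrane collagen, was the one that fell, with 807 to 932 in VAS *Stra6*-/- and 87.7 to 111 under the other label (log2 fold change -3.10, SE 0.16, adjusted p = 3.84e-13). It was also the riser with the largest change between VAS *Stra6*-/- and VAS WT (log2 fold change 1.56, SE 0.16, adjusted p = 2.65e-07), where 4 were higher and 2 lower (all genes, 15.9% and 10.8%). In VAD WT against VAS WT 2 passed the test, both higher (*P3h3*, 0.37, adjusted p = 0.00228, and *P3h4*, 0.39, adjusted p = 0.00165; without replicates 2 and 4, 3 were higher and 5 lower), and in the libraries with the VAD *Stra6*-/- label against VAD WT 12 were higher and 1 lower (13 and 1 without them). The shares of all genes were 3.29% and 5.52% in the former (17.7% and 20.4% without them). In the latter they were 26.3% and 29.7% (30.8% and 32.6% without them).

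Of 13 genes of propeptide cleavage and cross-linking, 8 were higher and 1 lower in the libraries with the VAD *Stra6*-/- label than in VAS *Stra6*-/-. The shares of all genes were 24.5% and 28.9%, and the median log2 fold change of the 13 genes was 1.08. *Loxl4*, a lysyl oxidase that cross-links collagen, was 86.7 to 159 in VAS *Stra6*-/- and 562 to 699.6 in the libraries with the VAD *Stra6*-/- label (log2 fold change 2.38, SE 0.19, adjusted p = 8.94e-10), and its relative *Lox* was 317 to 391 and 1599 to 1862 (log2 fold change 2.33, SE 0.29, adjusted p = 7.15e-07). *Adamts3*, a procollagen N-proteinase, was 131 to 186 and 101 to 144 (log2 fold change -0.48, SE 0.15, adjusted p = 0.012). Against VAD WT 6 were higher and 3 lower (8 and 2 without replicates 2 and 4). In VAS *Stra6*-/- against VAS WT 1 was higher and 5 lower, the latter led by *Adamts3* (log2 fold change -0.77, SE 0.15, adjusted p = 0.000691) and *Loxl4* (log2 fold change -0.77, SE 0.19, adjusted p = 0.00506). In VAD WT against VAS WT 2 were higher and 1 lower, and without replicates 2 and 4 the counts were 1 and 4.

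Of 9 tested collagen receptor genes, 6 were higher and 2 lower in the libraries with the VAD *Stra6*-/- label than in VAS *Stra6*-/-. The shares of all genes were 24.5% and 28.9%. *Ddr2*, a receptor kinase of fibrillar collagens, was 967 to 1077 in VAS *Stra6*-/- and 2448 to 2638 in the libraries with the VAD *Stra6*-/- label (log2 fold change 1.30, SE 0.21, adjusted p = 2.09e-05). *Ddr1*, its epithelial relative, fell (4194 to 5047 and 2284 to 2736, log2 fold change -0.93, SE 0.10, adjusted p = 1.32e-07), and so did the epithelial integrin chain *Itga2* (49.8 to 74.9 and 8.46 to 28.9, log2 fold change -1.92, SE 0.41, adjusted p = 0.000469). The 2 receptor kinases thus moved in opposite directions. *Lair1*, an inhibitory receptor of immune cells, rose too (log2 fold change 1.17, SE 0.24, adjusted p = 0.000234). In VAS *Stra6*-/- against VAS WT 3 were higher (among them *Itga2*, 1.67, adjusted p = 0.00427, and *Ddr1*, 0.55, adjusted p = 0.000464) and 1 lower (*Lair1*, -0.93, adjusted p = 0.00518). In VAD WT against VAS WT 1 passed the test (*Itga11*, 1.22, adjusted p = 0.0434; without replicates 2 and 4, 1 higher and 2 lower), and in the libraries with the VAD *Stra6*-/- label against VAD WT 4 were higher and 1 lower (5 and 1 without these replicates).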

How the data were processed

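Tissue described as the RPE–choroid eyecups of 20 mice, in 4 labelled groups of 5, was measured by poly(A) RNA sequencing. The authors aligned reads to GRCm38 (mm10) with STAR 2.5.3a, counted genes with RSEM 1.2.30 and normalized with DESeq2 1.32.0. The deposited signal, called the normalized value here, is the authors' gene count divided by 1 size factor per library. Multiplied back, 100% of values in all 20 libraries came out whole within 0.1 reads. VAD *Stra6*-/- replicate 1, whose size factor lies so near 1 that a separate check of low values could not find its step, was left out of count tests. The strand setting of counting is not given in the sources used here. The table holds 0 columns of other samples.

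Genes with a summed value of at least 5 were tested on log2(value + 1) with limma 3.58.1 (R 4.3.3, 4 group means, trended variance), and p-values were adjusted by Benjamini-Hochberg over 18745 genes. A gene was called at an adjusted p under 0.05. edgeR 4.0.16 and DESeq2 1.42.0 on recovered reads, other pseudocounts, no filter, TMM scaling, a replicate block, fits on the groups compared and leaving out libraries were alternatives. The limma fit was checked on simulated data. These held no split within VAD WT, so that the check does not cover the spread of that group. The members and gene lists were chosen with earlier results of these data known. Genes were described in full by rule: the 3 called members with the largest change in each direction and comparison (group mean of at least 50), and the gene with the highest mean in each structural class. Of the lists, the 2 called genes with the largest change per direction were named. Other genes given with values were chosen after their values were seen. Transcript length was that of a GENCODE transcript per gene.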

Additional observations from a re-analysis of the deposited data

Results flagged for a closer look

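In 4 of the 88 groups of 5 libraries tested over the fully described genes, 1 library stood far from the other 4 by Dixon's criterion, which chance alone meets in about 1 of 20 groups. *Col14a1* was 1935 in VAD *Stra6*-/- replicate 4, above the next library at 1636, and *Col1a2* was 33202 in replicate 3 of that group, above the next at 32061. *Col23a1* was 1424 in VAD *Stra6*-/- replicate 4, below the next at 1543. *Col6a4* was 33.7 in VAS *Stra6*-/- replicate 5, above the next at 19.3.

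The diet effect differed between the genotype labels for 19 collagen genes by the interaction term (limma). For 5 fully described genes the diet comparisons were also called in opposite directions under the labels, although VAD WT replicates 2 and 4 lay above VAS WT for *Col8a1*. With VAD WT and VAS WT fitted alone, the WT calls of *Col8a1*, *Col9a3* and *Col18a1* were lost. The interaction on the log2 scale was 4.11 for *Col8a1* (adjusted p = 3.77e-06), 2.72 for *Col9a3* (adjusted p = 8.57e-07), 2.32 for *Col4a3* (adjusted p = 1.91e-07), 1.55 for *Col4a4* (adjusted p = 2.93e-06) and 1.03 for *Col18a1* (adjusted p = 1.51e-05). The *Stra6* level, taken without regard to the RPE marker sum, goes against the VAD labels on which these directions rest. Set against that sum, *Stra6* was lower under both *Stra6*-/- labels than under both WT labels.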

How the results depend on the processing

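The number of collagen genes called was 18, 17, 26, 28 and 19 for VAS *Stra6*-/- against VAS WT, VAD WT against VAS WT, VAD *Stra6*-/- against VAD WT, VAD *Stra6*-/- against VAS *Stra6*-/- and the interaction. A log2 fold change beyond 2 as well left 0, 0, 6, 6 and 6. Fitting only the groups compared gave 30 in the first and 8 in the second. Without VAD WT replicates 2 and 4 the first gave 29 and the interaction 30, the median log2 fold change was -0.057 in the second and 0.40 for the interaction, and that of *Col14a1* between VAD WT and VAS WT reversed to -0.59. In VAD *Stra6*-/- against VAD WT the median was -0.15 with edgeR and -0.12 with DESeq2. Leaving out 1 library gave 15 to 20, 11 to 18, 25 to 28, 26 to 30 and 18 to 23 calls, and medians of 0.044 to 0.26 for VAD WT against VAS WT and 0.17 to 0.38 for the interaction. The causes were not tested. edgeR on recovered reads called 17, 15, 25, 26 and 18 collagen genes, and DESeq2 19, 17, 25, 26 and 18. A replicate block gave 17, 15, 26, 29 and 19 calls and ended that of *Col4a3* in the first (adjusted p = 0.0507); the numbers do not pair the libraries, as 1 of 30 same-number pairs correlated above 0.1 (range -0.199 to 0.145) and 3 libraries matched their own number best. For the fully described genes 917 of 968 values under settings other than leaving out 1 library kept direction and call, 23 lost the call, 27 gained it and 1 reversed; of 2200 leaving out 1 library, 2117 kept both. *Col6a4* and *Col26a1* have few reads, and the part of this in their calls was not tested.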
